A study of Drosophila melanogaster with 4 samples.

Results

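Unannotated antisense starts are sites where capped nascent RNA began on the strand opposite a gene, close to that gene's 5′ end, and where the authors' gene table placed no 5′ end on the start's own strand. The centre of each deposited interval was used as the position of the start, in the dm3 build. A start was a member if an opposite-strand gene had its 5′ end within 500 bp, no same-strand gene had its 5′ end within 500 bp, and the site lay inside no same-strand gene. The gene with the nearest opposite-strand 5′ end is called the facing gene. The rule found 589 of 6782 sites in the list of 5′GRO-seq replicate 1 and 351 of 9387 in that of replicate 2. Of these, 83 were found in both lists within 5 bp, so the lists held 857 different members.

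The series comprised 4 libraries of Drosophila melanogaster S2 cells, a line derived from late embryos and grown without any treatment, with 2 libraries each of 5′GRO-seq and GRO-seq. Both assays let engaged polymerases extend their transcripts with a bromouridine nucleotide in isolated nuclei and then purify that RNA, and 5′GRO-seq keeps only RNA that carried a cap. All 4 libraries come from the same untreated line, so no condition was compared, and whether replicates came from separate cultures is not given in the labels. The 5′GRO-seq libraries held 13979543 and 6710787 tags, and the GRO-seq levels of genes were deposited as FPKM in libraries named Sample3 and Sample4, with normalising totals of 6572375 and 2474837 reads. Of 13 genes listed as hemocyte markers, 9 had at least 10 FPKM in both libraries, against 1 of 8 neuronal, 0 of 6 muscle and 0 of 6 germline markers. The summed levels were 1039 and 1771 FPKM for hemocyte, 12.4 and 14.0 for neuronal, 4.82 and 3.04 for muscle and 10.1 and 6.80 for germline markers. The collagen gene Cg25C alone gave 276 and 863 FPKM of the hemocyte sums. The hemocyte markers short of 10 FPKM in both libraries were Pxn (2.84 and 3.59), NimC1 (0.926 and 0.757), He (2.71 and 5.53) and eater (10.5 and 4.56).

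By way of background, a promoter lies in a stretch of open chromatin, and polymerase can begin on either strand there. Starts pointing away from a gene, upstream of it, are called divergent, and starts inside the gene that run against it are called convergent. Many divergent RNAs are short and are degraded soon after synthesis, so assays of nascent RNA see them better than assays of stable RNA. In flies they are known to be less common than in mammals, and many fly genes lie head to head with a neighbour on the other strand.

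Most members lay upstream of the gene they faced, by the 5′ ends of the authors' table. In replicate 1, 454 of 589 members were upstream (77.1%, 95% exact interval 73.5 to 80.4) and 135 downstream. In replicate 2, 226 of 351 were upstream (64.4%, 59.1 to 69.4) and 125 downstream. Among the 83 members in both lists the share was 90.4% (75 starts, 81.9 to 95.7). These intervals, like all those below, cover counting error only. With starts that the facing gene's end passed in a later gene table counted as downstream, as described further on, the upstream shares were 63.7% and 55.8%. The median distance upstream was 217 bp in replicate 1 (quartiles 114 and 346), 248.5 bp in replicate 2 (135 and 381) and 298 bp for the starts in both lists (154.5 and 404).

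The upstream starts of replicate 1 were densest between 51 and 150 bp. That stretch held 153 members (26.0% of the list, 22.5 to 29.7), with 71 from 51 to 100 bp and 82 from 101 to 150 bp. The nearest 50 bp held 20. In replicate 2, 61 members lay from 51 to 150 bp (17.4%, 13.6 to 21.8) and 7 in the nearest 50 bp. On the downstream side no such peak was seen: replicate 1 had 30 members within 150 bp and 105 beyond it, and replicate 2 had 33 and 92. With the same-strand rule kept at 500 bp, sites facing a 5′ end 501 to 1000 bp away numbered 156 upstream and 112 downstream in replicate 1, and 122 upstream and 112 downstream in replicate 2.

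**Figure D1:**
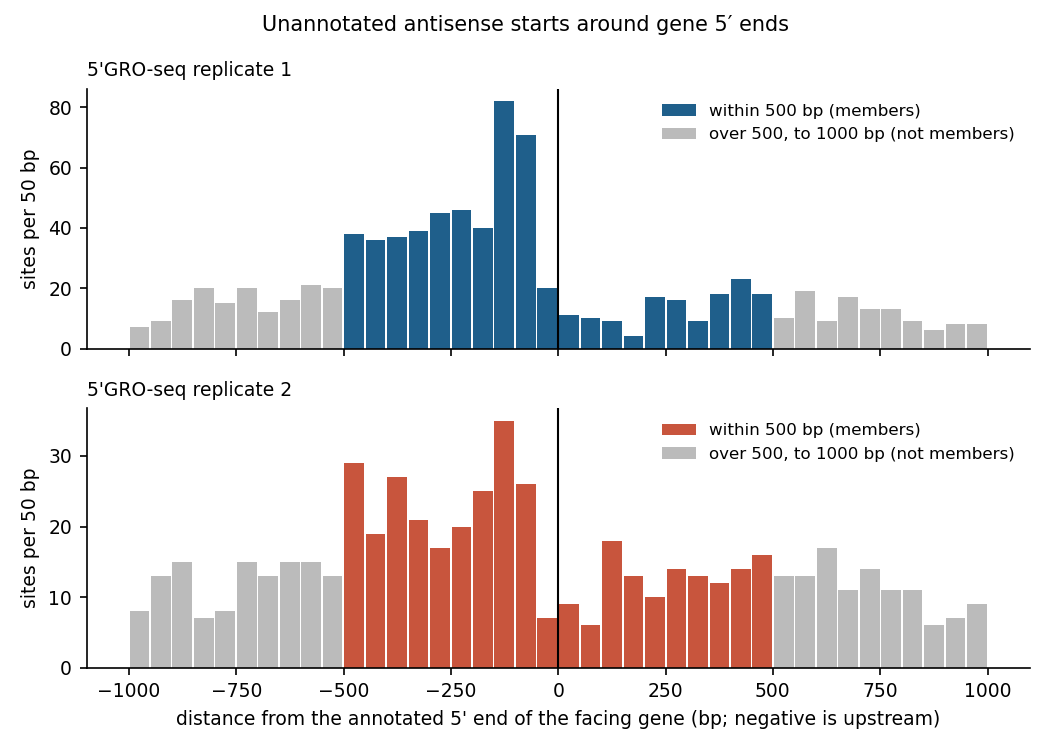
Number of unannotated antisense sites per 50 bp (y axis) by distance from the annotated 5′ end of the facing gene (x axis, bp, negative is upstream), for 5′GRO-seq replicate 1 above and replicate 2 below. Coloured bars are the 589 and 351 members, grey bars are sites 501 to 1000 bp away; the tallest bar in each panel is the one from 101 to 150 bp upstream, with 82 sites in replicate 1 and 35 in replicate 2.

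At the edge of the window, the 3 outermost members of replicate 1 faced CG11927, Drat and Fic, each 500 bp upstream, and the nearest sites beyond it lay 501 bp downstream of CG17265, 501 bp upstream of CR44522 and 502 bp upstream of CG5758. In replicate 2 the outermost members faced CG11927 and CG4669 at 500 bp and CG9586 at 499 bp. The nearest sites beyond lay 504 bp downstream of CG31673 and 505 bp downstream of CR44992 and wgn.

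Nearly all downstream members lay inside the gene they faced, 130 of 135 in replicate 1 and 117 of 125 in replicate 2. The rule itself places them there unless the gene is shorter than the distance, so nothing is drawn from this count. Of the upstream members, 411 of 454 in replicate 1 (90.5%) and 192 of 226 in replicate 2 (85.0%) lay outside every annotated gene, and the other 43 and 34 lay within a further opposite-strand gene. The 3′ end of a same-strand gene lay in the 500 bp behind 7 upstream members in replicate 1 (1.54%) and 6 in replicate 2 (2.65%). For downstream members it was 3 of 135 (2.22%) and 13 of 125 (10.4%). The share over all sites was not counted. The members spread over the chromosome arms, with 11 on chromosome 4 in replicate 1 (1.87% of members) and 7 in replicate 2 (1.99%), against 1.27% and 1.90% of all sites in those lists and 0.62% of the table's genes. Of the 83 members in both lists, 25 lay on 2L (30.1%), which holds 19.6% of genes.

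Members recurred between the lists less often than other sites in replicate 1, and in replicate 2 at a share slightly above that of the list. A site of the other list lay within 5 bp of 14.1% of members in replicate 1 (83 of 589, 11.4 to 17.2), against 26.5% of all sites of that list and 27.7% of its other sites. In replicate 2 it was 23.6% of members (83 of 351, 19.3 to 28.4), against 19.1% of all sites and 19.0% of its other sites. The single base was the same for 74 of the 83 (89.2%, 80.4 to 94.9). That share over all sites found in both lists was not counted. A wider search found a same-strand site of the other list within 500 bp of 142 members of replicate 1 (24.1%) and 140 of replicate 2 (39.9%). The share over all sites at that distance was not counted, so these 2 shares have no background. The lists carry no score, and what their order stands for is not stated. Members were more frequent towards the end of both files: in replicate 1 they made up 17.2% of the last 1357 sites and 3.39% of the first 1356, and in replicate 2 5.80% of the last 1878 and 2.93% of the first 1877. Per the file headers, a site had to exceed the GRO-seq library 4-fold, and this removed 82.0% and 74.1% of putative sites. Its part in which members recurred was not tested.

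The genes facing members numbered 584 in replicate 1 and 345 in replicate 2, of which 135 were in common (23.1% and 39.1% of the lists). They made up 3.52% and 2.08% of the 16612 genes of the table, and those facing a start in both lists 0.5%. No gene faced 3 or more members in a list, and 5 and 6 genes faced 2. The file headers set a minimum of 300 bp between sites and a 4-fold excess over a local region of 1000 bp. These settings limit how many starts a gene can face. Protein-coding genes made up 92.3% of facing genes in replicate 1 (539, 89.8 to 94.3) and 83.8% in replicate 2 (289, 79.4 to 87.5), against 83.9% of all genes in the table. Of the 83 genes facing a start in both lists, 76 were protein-coding and 7 noncoding.

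Facing genes were mostly transcribed, at levels close to those of other genes with a called start of their own. In replicate 1 their median was 15.8 FPKM in Sample3 and 14.1 in Sample4. Other genes with a sense start, meaning a same-strand site within 100 bp of their 5′ end, had 13.0 and 11.7 (n = 3812), and all genes 1.98 and 1.38. In replicate 2 the facing genes had medians of 14.3 and 12.2 FPKM, against 14.7 and 13.0 for other genes with a sense start (n = 2376). On the log2(mean FPKM + 1) scale the difference of medians was 0.24 in replicate 1 (4.01 against 3.77). In replicate 2 it was -0.074 (3.84 against 3.92), and it turned to 0.14 when genes under 1 FPKM were left out. Genes facing a start in both lists had medians of 14.5 and 12.3 FPKM, with quartiles of 7.21 and 22.7 of their mean over both libraries.

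The lower end of the range differed between the lists. Facing genes of at least 1 FPKM in the mean of both libraries made up 94.3% in replicate 1 (92.2 to 96.1) and 83.5% in replicate 2 (79.1 to 87.2), against 53.5% of all genes. Of the facing genes, 6 in replicate 1 and 24 in replicate 2 were listed at 0 in both libraries, as were 4185 genes of the table. Reads recovered from the FPKM steps gave facing genes of replicate 1 a median of 326.5 and 97 reads, against 26 and 7 for all genes. Genes facing an upstream member had a median of the mean level of 15.1 FPKM in replicate 1 and 13.2 in replicate 2, and those facing a downstream one 16.6 and 16.1.

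**Figure D2:**
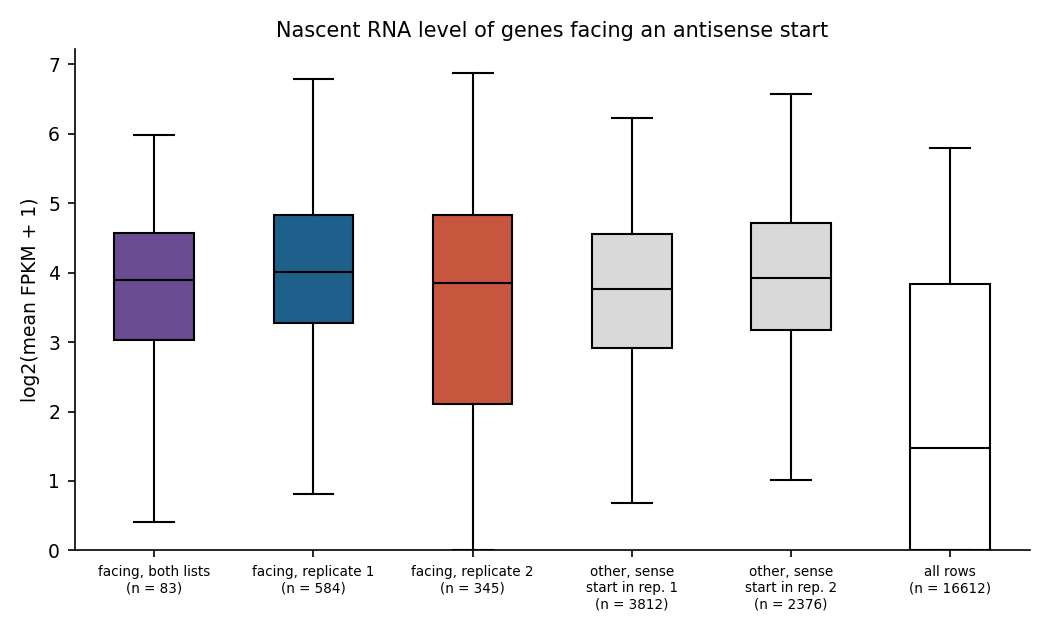
Nascent RNA level, as log2(mean FPKM + 1) over both GRO-seq libraries (y axis), of genes facing a member in both lists, in replicate 1 and in replicate 2, beside other genes with a sense start and all genes of the table. Boxes show quartiles and median and whiskers the 5th and 95th percentiles over genes; medians of the facing groups lie from 3.84 to 4.01, those of other genes with a sense start at 3.77 and 3.92, and that of all genes at 1.47.

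Many facing genes had no called start of their own at the annotated end. In replicate 1, 254 of 584 had a sense start (43.5%, 39.4 to 47.6), against 24.5% of all genes. With genes under 1 FPKM left out it was 45.2% of facing genes (249 of 551, 41.0 to 49.5), against 42.8% of all such genes, which lies within the interval. In replicate 2, 75 of 345 had one (21.7%, 17.5 to 26.5), against 14.8% of all genes; at 1 FPKM or more it was 25.7% (74 of 288, 20.7 to 31.1), against 26.3%. Of the 83 genes facing a start in both lists, 15 had a sense start in both lists as well (18.1%, 10.5 to 28.0, against 10.6% of all genes), 11 of them at the same base. A sense start was called for 36 of the 83 in replicate 1 (43.4%, against 24.5% of all genes) and 19 in replicate 2 (22.9%, against 14.8%). In neither list had 43 one (51.8%), and that share over all genes was not counted. These shares of all genes are not matched for level: 7724 of all 16612 genes were under 1 FPKM in the mean, against 8 of these 83. The share in both lists among genes of at least 1 FPKM was not counted.

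Where a sense start was called, the spacing between it and the upstream antisense start had a median of 199 bp in replicate 1 (n = 201, quartiles 120 and 356) and 236.5 bp in replicate 2 (n = 46, 125.5 and 386). Spacings from 50 to under 200 bp made up 47.8% (96, 40.7 to 54.9) and 43.5% (20, 28.9 to 58.9).

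The share of promoters that have such a start was set on genes with room for one, those with no opposite-strand 5′ end within 1000 bp and no opposite-strand gene over the surrounding 500 bp. Of these, genes with a sense start in replicate 1 had an upstream member in 171 of 1818 cases (9.41%, 8.10 to 10.8) and a downstream one in 44 (2.42%, 1.76 to 3.24). Without a sense start the upstream share was 2.82% (231 of 8197). In replicate 2 the shares with a sense start were 3.26% upstream (37 of 1135, 2.31 to 4.47) and 1.23% downstream (14, 0.68 to 2.06), and without one 1.76% upstream (156 of 8880). Genes with and without a sense start were not matched for level here. Over the whole table, 93.6% and 95.3% of genes with one had at least 1 FPKM in the mean, against 53.5% of all genes. Whether the shares differ at equal level was not tested.

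The share was lowest for genes with a sense start but under 1 FPKM, 3 of 204 in replicate 1 (1.47%, 0.30 to 4.24) and 1 of 98 in replicate 2. From 1 to 10 FPKM it was 8.74% in replicate 1 (48 of 549, 6.52 to 11.4), from 10 to 30 FPKM 11.4% (85 of 743, 9.24 to 14.0), from 30 to 100 FPKM 10.4% (26 of 250, 6.91 to 14.9) and from 100 FPKM 12.5% (9 of 72, 5.88 to 22.4). The intervals of the classes from 1 FPKM upward overlap one another. In replicate 2 these classes had 2.49%, 4.38%, 2.41% and 4.29%, on 8, 21, 4 and 3 genes.

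On the strand of the upstream members, a gene began within 2000 bp ahead of 142 in replicate 1 (31.3%, 27.0 to 35.8), 76 in replicate 2 (33.6%, 27.5 to 40.2) and 27 of the 75 in both lists (36.0%, 25.2 to 47.9). The next gene with its 5′ end on the start's strand is called the neighbour. Of genes that faced no member and had their neighbour over 500 bp away, 23.5% had it at a gap within the range of those members, and 32.3% of the ones with a sense start, so the members' shares lie near that of genes with a sense start. The authors' table has 1 transcript per gene, so the gap between the 5′ ends of each facing gene and its neighbour was also taken from a later RefSeq gene table, which gives the outer span of every gene. That table is on a later assembly, has no strand, and supplied distances only, with strands from the authors' table; 16336 of 16612 genes matched it by accession. A start is called reached where the later gap was no more than the start's distance from the facing gene plus 10 bp. This definition was chosen after the data were seen and is applied to upstream starts. The gap runs between the outer ends of both genes, so it also shortens where the facing gene's own end moved out. An upstream start is called passed where the facing gene's span grew by at least the start's distance, and the gap shortened by at least that distance more than the whole growth of the neighbour's span. Unless another end was drawn in, such a start lies inside the facing gene's later span. This measure was also added after the data were seen.

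The later gap reached 131 of 446 upstream members in replicate 1 (29.4%, 25.2 to 33.8), 84 of 222 in replicate 2 (37.8%, 31.4 to 44.6) and 40 of the 75 in both lists (53.3%, 41.4 to 65.0). With the whole growth of the facing gene's span between the tables counted as upstream and added to the gap, an alternative added after the data were seen, 86 in replicate 1 (19.3%, 15.7 to 23.3), 66 in replicate 2 (29.7%, 23.8 to 36.2) and 28 in both lists (37.3%, 26.4 to 49.3) were still reached. Of the other 45, 18 and 12 reached starts, 24, 8 and 4 were passed by the facing gene's own end. For the remaining 21, 10 and 8 it cannot be told which end moved. One passed start faced sick, whose span was 138888 bp longer in the later table, while that of its neighbour CR45183 had the same length in both. In all, 79 of 446 upstream members in replicate 1 (17.7%, 14.3 to 21.6), 30 of 222 in replicate 2 (13.5%, 9.31 to 18.7) and 11 of 75 in both lists (14.7%, 7.56 to 24.7) were passed, of which 32, 11 and 6 also count as reached. With those left out, the later gap reached 22.2%, 32.9% and 45.3%. By the same measure the facing end lay over 100 bp further out for 20.6% of upstream members in replicate 1, 16.2% in replicate 2 and 18.7% in both lists, against 12.3% of genes that faced no member and had their neighbour over 500 bp away, and 16.9% of those with a sense start. For the 75 starts in both lists the median gap was 451 bp in the later table and 4902 bp in the authors'. Among upstream members with a neighbour within 2000 bp, the later gap was more than 100 bp shorter than the authors' for 92 of 142 in replicate 1 (64.8%), 54 of 76 in replicate 2 (71.1%) and 24 of 27 in both lists (88.9%), against 28.2% of genes that faced no member and had an authors' gap in the same range. For the ones among those genes with a sense start in either list it was 33.7% (277 of 822). A later gap of 500 bp or less was found for 144 upstream members of replicate 1 (32.3%), 93 of replicate 2 (41.9%) and 42 of those in both lists (56.0%), and likewise for 37 of 127 downstream members in replicate 1 (29.1%) and 37 of 121 in replicate 2 (30.6%). Of genes that faced no member and had their neighbour over 500 bp away in the authors' table it was found for 8.97% (1075 of 11981), and for 12.2% of those with a sense start (310 of 2542). The word unannotated therefore refers to the authors' table. Some starts counted as not reached also had the neighbour's later end within 500 bp of them if the facing end is taken as unmoved, 23 in replicate 1, 11 in replicate 2 and 2 in both lists.

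In 10 of the 75 (13.3%) the later gap and the start's distance differed by at most 10 bp, and in 22 by at most 50 bp. Within 10 bp it was 26 of 446 upstream members in replicate 1 (5.83%) and 20 of 222 in replicate 2 (9.01%). Within 50 bp it was 66 and 40. How many would match with unrelated gaps of 500 bp or less was not tested. The pairs named next were picked after their values were seen. The antisense start opposite tefu, the fly ATM kinase gene, lay at 3R 11068413 on the + strand of dm3, 455 bp upstream of tefu. A later gap of 451 bp separates tefu from Hsc70-4, a constitutive Hsp70 chaperone gene, while the authors' transcripts lie 2020 bp apart. Hsc70-4 had 439 and 580 FPKM, and tefu 12.0 and 8.22. The start opposite Mcr, a macroglobulin complement-related gene, was 440 bp upstream at 2L 8083422, and the later gap to Bsg, the basigin gene, was 438 bp, against 6121 bp in the authors' table. Bsg had 30.8 and 52.5 FPKM, and Mcr 22.7 and 15.0. Opposite CG17207, at 0.92 and 0.61 FPKM, a start 462 bp upstream stood against a later gap of 461 bp to Desat1, a fatty acid desaturase gene at 85.6 and 107 FPKM. Opposite l(1)1Bi, at 7.29 and 6.80 FPKM, a start 366 bp upstream lay inside the later span of RpL36, a ribosomal protein gene at 372 and 427 FPKM, whose gap was 290 bp. In each of these 4 pairs the facing gene's span had the same length in both tables and the neighbour was the more highly transcribed gene in both libraries.

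**Figure D3:**
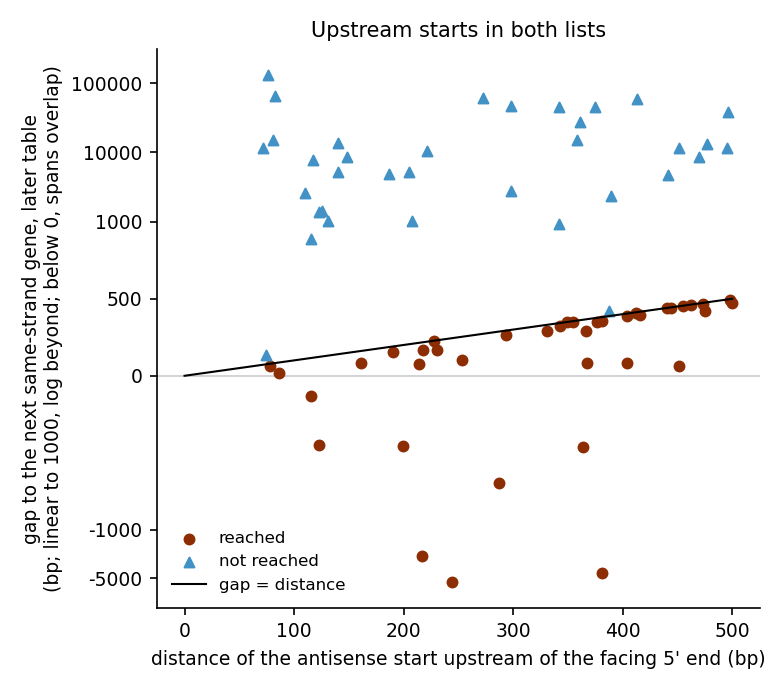
Gap between the facing gene and its neighbour in the later gene table (y axis, bp, linear to 1000 and log beyond, below 0 where the spans overlap) against the distance of the antisense start upstream of the facing 5′ end (x axis, bp), for 74 of the 75 upstream starts in both lists; 1 reached start with a gap below the axis is left out. Circles are starts reached by the later gap and triangles those not reached; many circles lie on or just under the line where gap equals distance, and most triangles lie at gaps above 1000 bp.

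Reached starts and the rest differed in where they lay and in what lay ahead, although a start further out is reached more easily by definition. Of the reached starts, 41 in replicate 1, 20 in replicate 2 and 9 in both lists belonged to pairs whose later spans overlap. In replicate 1 the 131 reached starts had a median distance of 285 bp (quartiles 144.5 and 381), and the 315 not reached 191 bp (105.5 and 316.5). In the stretch from 51 to 150 bp lay 22.1% of reached starts (29, 15.4 to 30.2) and 38.4% of the rest (121, 33.0 to 44.0). In replicate 2 it was 17.9% of 84 reached starts (15, 10.4 to 27.7) and 33.3% of 138 others (46, 25.5 to 41.9), an overlap of the intervals that replicate 1 did not have. Among starts neither reached nor passed the share was 37.3% in replicate 1 (100 of 268, 31.5 to 43.4) and 31.1% in replicate 2 (37 of 119, 22.9 to 40.2). Reached starts also recurred more: 30.5% of them were in both lists in replicate 1 (22.8 to 39.2), against 11.1% of the rest (7.86 to 15.1), and in replicate 2, 47.6% (36.6 to 58.8) against 25.4% (18.3 to 33.5). They stood earlier in the files, at a median of 42.7% of the list against 77.9% for the rest in replicate 1 and 24.2% against 61.5% in replicate 2.

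The neighbours of reached starts had higher levels than those of the rest. In replicate 1 they had medians of 17.1 and 18.9 FPKM, against 8.67 and 6.92 for neighbours of the rest. In replicate 2 it was 23.6 and 23.6 FPKM, against 8.30 and 6.47. For the 40 reached starts in both lists, the neighbour had medians of 25.9 and 25.8 FPKM and the facing gene 12.4 and 9.84, and the neighbour was the higher of the pair, by the mean of both libraries, in 32. For the other 35 the neighbour had 7.91 and 6.14 FPKM and the facing gene 16.9 and 12.7, and the neighbour was higher in 13. Reached starts here include the 32, 11 and 6 that were passed by the facing gene's own end, and levels without them were not taken. Neighbour levels of genes that faced no member were not taken either. Because the authors' table counts reads over the span of 1 transcript, reads between a neighbour's later and earlier 5′ ends are not in these levels.

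**Figure D4:**
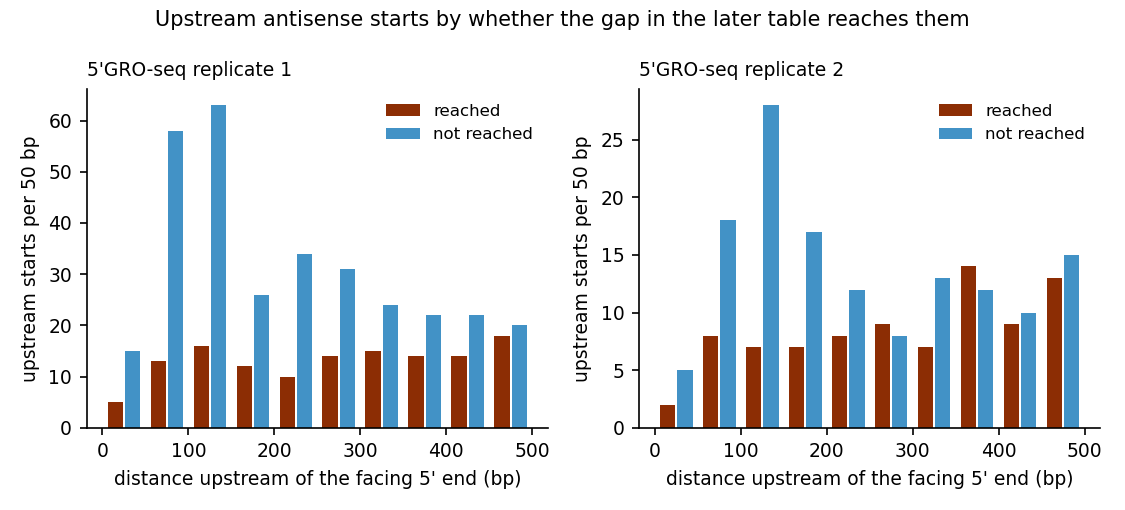
Number of upstream members per 50 bp (y axis) by distance upstream of the facing 5′ end (x axis, bp), for replicate 1 on the left and replicate 2 on the right, with starts reached by the later gap beside those not reached. The bars of starts not reached are tallest from 51 to 150 bp, with 121 in replicate 1 and 46 in replicate 2, while reached starts are spread over the window.

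A later gene that the authors' table lacks lay in the 500 bp upstream of 15 of 452 genes facing an upstream member in replicate 1 (3.32%, 1.87 to 5.41) and 9 of 223 in replicate 2 (4.04%, 1.86 to 7.52), against 1.92% of all matched genes. For starts in both lists it was 3 of 75. These were an antisense RNA, asRNA:CR45908, near CG1104, and a transfer RNA gene each near CG4174 and CR45364. The strand of these genes is not in the table used here.

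Of the starts in both lists, the one facing the most transcribed gene lay opposite vkg, a collagen IV chain gene. It was at 2L 5027570 on the + strand in both lists, 125 bp upstream of the annotated end and 133 bp from the sense start at 5027437, which both lists also held. The vkg gene had 109 and 199 FPKM (mean 154 ± 64.0, SD, n = 2). The next gene on the start's strand was Cg25C, the other collagen IV chain gene, with 276 and 863 FPKM. Its 5′ end lay 2171 bp from that of vkg in the authors' table and 1418 bp in the later one, so the gap did not reach the start. The span of vkg was 746 bp longer in the later table and that of Cg25C 356 bp, while the gap was 753 bp shorter. At least 397 bp of that thus falls to the end of vkg, unless another end was drawn in, which puts the start inside the later span of vkg.

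The other 9 starts among the 10 facing the highest genes covered a range of positions. CG18088 had 120 and 69.1 FPKM and a start 205 bp upstream, and Rho1, a small GTPase gene, 72.1 and 110 FPKM and a start 214 bp upstream. Bacc, with 94.1 and 74.1 FPKM, was the single gene of the 10 faced from inside, 260 bp downstream. CG17018 had 64.1 and 62.8 FPKM, and Surf6, a nucleolar protein gene, 31.2 and 67.2. Hel25E, an RNA helicase gene of mRNA export, had 53.5 and 42.5 FPKM and a start 230 bp upstream, with a sense start at the same base in both lists and 259 bp away. CG11377 had 34.6 and 56.9 FPKM, CG4164 44.3 and 46.8, and Ppn, the papilin gene of the extracellular matrix, 39.8 and 36.8. Of the 9 upstream starts among the 10, the later gap reached 3, those opposite Rho1 (CG8414, gap 79 bp), Hel25E (Lam, a lamin gene, 166 bp) and CG4164 (crq, a scavenger receptor gene, 84 bp). The span of CG4164 had the same length in both tables. That of Hel25E was 171 bp longer and that of Lam 620 bp, which equals the shortening of their gap. For Rho1 the span was 1519 bp longer and that of CG8414 unchanged, with a gap 779 bp shorter, so its start was passed by Rho1's own end and not by that of CG8414. The start opposite CG17018, 272 bp upstream, was passed as well: its span was 45620 bp longer and the gap to RpL21 45642 bp shorter, with RpL21 77 bp longer. The later spans of Bacc and its neighbour Pgk overlap.

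**Figure D5:**
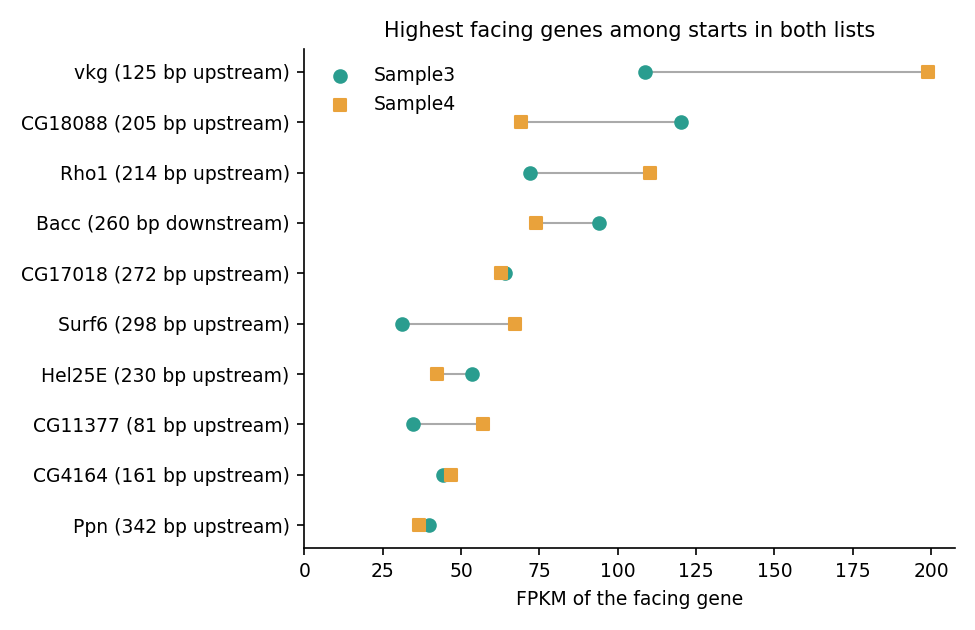
FPKM (x axis, linear from 0) of the 10 most highly transcribed genes that face a start in both lists, with the position of the start beside each name; circles are Sample3 and squares Sample4. The 2 values lie furthest apart for vkg, at 109 and 199 FPKM, and closest for CG17018, at 64.1 and 62.8 FPKM.

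At the other end, 3 starts in both lists faced genes with levels at or near 0. Ir60e, an ionotropic receptor gene, had 0.177 and 0 FPKM and a start 343 bp upstream, and CR45364 and Drsl6 were listed at 0 in both libraries with starts 477 and 444 bp upstream. Drsl6 belongs to the drosomycin-like peptide genes. Its start was the fifth member in the file of replicate 2, and its neighbour in the later table was kst, a beta-heavy spectrin gene with 34.2 and 44.1 FPKM, at a gap of 442 bp. Ir60e's start was reached as well, at a gap of 322 bp to CG13585 (11.4 and 15.5 FPKM), and that of CR45364 was not.

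The first member in both files was the same start, 451 bp upstream of l(2)k14710 at 2R 2102078, a gene with 14.3 and 9.31 FPKM. Its neighbour, tomboy40, lay 11512 bp away in both tables. The next members of replicate 1 faced RN-tre, a GTPase activator gene (496 bp, 31.0 and 31.3 FPKM), CG30493 (349 bp, 7.77 and 7.32 FPKM) and CR44103 (178 bp, 1.40 and 0 FPKM). The fifth was 71 bp inside CR45135, which had 6.47 and 3.03 FPKM. Those of replicate 2, beside Drsl6, faced CG13398 (493 bp), CG14710 (187 bp) and Pez, a tyrosine phosphatase gene (420 bp). CG30493's start was reached, since the later gap to CG1399 was 351 bp, against 17417 bp in the authors' table.

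The facing genes were also counted by gene class, among them ribosomal protein genes, whose promoters carry the TCT motif that the study is about. Of 93 genes with a ribosomal protein symbol, 2 faced a member in replicate 1 and 2 in replicate 2 (2.15% each, against 3.52% and 2.08% of all genes), and none in both. Here and for the classes below, the shares of all genes are not matched for level. Ribosomal protein genes had a median of 414 FPKM in the mean of both libraries, against 1.77 for all genes. RpL27 had a start 137 bp upstream in replicate 1, 142 bp from its sense start, and 223 and 374 FPKM. RpS24 had one 211 bp upstream in replicate 1 and 538 and 1266 FPKM. In replicate 2 the genes were RpS29, with a start 38 bp inside it and 542 and 365 FPKM, and RpLP0-like, which matches by symbol, with a start 101 bp upstream and 40.6 and 47.9 FPKM.

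Mitochondrial ribosomal protein genes faced a member in 6 of 73 cases in replicate 1 (8.22%) and 2 in replicate 2 (2.74%), against the 3.52% and 2.08% of all genes. The class had a median of 10.4 FPKM in the mean of both libraries, against 1.77 for all genes. The shares are therefore not matched for level, and no difference is drawn from 6 and 2 genes. Both genes of replicate 2 were in both lists: mRpS23, with a start 495 bp upstream and 7.96 and 14.7 FPKM, and mRpL33, with a start 416 bp upstream and 15.3 and 2.60 FPKM. The start of mRpL33 was reached, at a later gap of 395 bp to norpA, the phospholipase C gene of vision. None of 111 histone genes faced a member in either list. The rule allows no member where a gene begins on the start's own strand within 500 bp. How many histone genes had room for a member under that rule was not counted, so nothing is drawn from this count. Of 273 snoRNA genes, whose products guide RNA modification, 3 did in replicate 1 (1.10%) and 10 in replicate 2 (3.66%), and of 31 snRNA genes 1 did in each (3.23%), against the same shares of all genes. None of these was in both lists.

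Among 236 microRNA genes, 3 faced a member in replicate 1 (1.27%) and 2 in replicate 2 (0.85%), against 3.52% and 2.08% of all genes. The one in both was mir-4974, with 9.04 and 0 FPKM and a start 361 bp upstream, inside a further opposite-strand gene. Of 2008 genes with a noncoding CR symbol, 35 did in replicate 1 (1.74%) and 41 in replicate 2 (2.04%), and 6 in both. Besides CR45364 these were CR44368 (199 bp upstream, 8.90 and 5.84 FPKM), CR45166 (244 bp upstream, 0.453 and 0.301 FPKM), CR45324 (121 bp downstream, 1.05 and 1.39 FPKM), CR43144 (231 bp downstream, 36.9 and 21.9 FPKM) and CR44724 (481 bp downstream, 0.304 and 0.808 FPKM). The start opposite CR44368 was passed by its own later end. CR43144 also had a sense start at the same base in both lists, at 2L 21657705, and its antisense start at 21657890 lay ahead of it, so that the pair converged. Of 16 targets of signalling pathways, kay, the fly Fos gene, faced a start 157 bp upstream in replicate 1 (91.8 and 158 FPKM), and Socs36E, an inhibitor of JAK-STAT signalling, one 453 bp downstream in replicate 2 (143 and 127 FPKM). That is 1 gene in each list (6.25%), against 3.52% and 2.08% of all genes. The class had a median of 65.0 FPKM in the mean of both libraries, against 1.77 for all genes, and nothing is drawn from 1 gene in each list.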

How the data were processed

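Per the file headers, the authors ran HOMER's TSS mode on each 5′GRO-seq library apart, with a GRO-seq library as control. Headers give an FDR of 0.001 and minimum counts of 20 and 14 tags. The deposited score column holds a constant, another value than a score, and was not used. Tools named in the submitters' processing notes are HOMER 4.7, Bowtie2 2.1.0 and CASAVA 1.8.2, and the build is dm3. The authors deposited GRO-seq levels in FPKM, with a single RefSeq transcript for each gene, and the columns Sample3 and Sample4 carry no replicate number. Multiplied by gene span, 99.9% of low FPKM values in both columns were whole multiples of 1 step within 0.1 read, which gave reads and normalising totals.

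Intervals of 151 bp were reduced to their centres. Sites were set against the 16612 genes of the table with Python 3.11.15, pandas 2.3.3, numpy 2.4.6 and scipy 1.17.1. The rule was tested on simulated data. Intervals printed with shares are 95% exact Clopper-Pearson intervals, and shares of called members are set beside those over all sites or genes, or over genes facing no member, where such a background could be had. Sites and genes are not replicates, and 4 libraries of 1 condition allow no test across samples, so no p-value was computed. A pseudocount of 1 was used for log2 levels, which compresses differences between low genes. Exact values of 0 are given as listed at 0.

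Members, gene lists and alternatives were chosen with earlier results of these data known. Genes were named by a fixed rule: the 10 highest and 3 lowest facing genes of starts in both lists, the 5 earliest members of each file, genes facing 3 or more members, the 3 sites on each side of the 500 bp edge, and starts in both lists facing a gene of the lists. Genes of the lists that face a start in 1 replicate, neighbours, tefu, Mcr, CG17207, l(1)1Bi and sick were named after their values were seen. Motif content of promoters was not analysed here.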

Additional observations from a re-analysis of the deposited data

How the results depend on the processing

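With a window of 250 bp the members numbered 329 in replicate 1 and 182 in replicate 2, and the share upstream in replicate 1 was 83.6%, against 70.6% with 1000 bp. Allowing 500 bp for a sense start raised the share of facing genes with one in replicate 2 to 27.0%. The log2 difference of medians between facing genes and other genes with a sense start was 0.26 in replicate 1 with a pseudocount of 0.1 and 0.25 with genes of at least 1 FPKM, and with each library alone 0.25 to 0.26. In replicate 2 it turned to 0.14 with genes of at least 1 FPKM, which leaves out the facing genes listed at 0, and with each library alone it lay between -0.085 and -0.039. The median level of genes facing a start in both lists was 12.3 to 14.5 FPKM with each library alone. Without pairs that overlap in the later table, an alternative chosen after seeing the data, 22.2% of upstream members of replicate 1 were reached. With all growth of the facing gene counted as upstream, also added later, it was 19.3% in replicate 1, 29.7% in replicate 2 and 37.3% of starts in both lists. With starts passed by the facing gene's own later end counted as downstream, a further alternative added later, the share upstream was 63.7% in replicate 1 and 55.8% in replicate 2, and with such starts not counted as reached 22.2% of upstream members of replicate 1 were. The other 35 values kept their direction and moved less than their counting interval or spread or, for counts, less than 1.5 times. No paired analysis was possible because no result comes from a test between groups and the FPKM columns carry no replicate number. The planned comparison of promoter motifs was not run. The libraries behind the lists differ in depth, with 13979543 tags in replicate 1 and 6710787 in replicate 2, and the part of depth in which starts recurred was not tested.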
